A study of Mus musculus with 20 samples.

Results

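The genes described here form the insulin-like growth factor (IGF) system as far as it was selected: the growth factor gene Igf1, the receptor gene Igf1r and the binding protein genes Igfbp2 to Igfbp7. They were chosen by name, as every probe set with 1 gene symbol that carries one of these symbols, current or former. That gave 8 of the 12393 genes with such a probe set, on 19 of the 22690 probe sets. A probe set is the group of oligonucleotides that reads 1 transcript region on an Affymetrix array.

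IGF1 binds the IGF1 receptor, a tyrosine kinase that signals through insulin receptor substrates, phosphoinositide 3-kinase and Akt to growth and survival. Secreted binding proteins hold most IGF outside cells and either keep it from the receptor or deliver it, and proteases such as the pappalysins release it by cutting them. Mouse embryonic fibroblasts (MEFs) depend on this receptor for normal growth in culture.

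Total RNA was measured on 20 1-colour arrays, each from 1 culture of primary MEFs, which are connective tissue cells grown from embryos at 13.5 days post coitum. The E2F4 null group held 10 cultures from 5 embryos, 2 cultures each, and the wild type group 10 cultures from 3 embryos, with 3, 3 and 4 cultures. E2F4 is a transcription factor that, with the pocket proteins p107 and p130, represses cell cycle genes in resting cells. The labels give the genotype and the embryonic age, but not the deleted part of E2f4, strain, sex, litter, passage or array batch. The first number in the sample titles was read as the embryo, which is the replicate, and cultures of an embryo are repeats of it. Primary MEFs are a mixed outgrowth of embryonic tissue, and in such bulk samples fewer cells of a type and less RNA per cell cannot be told apart.

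Values are array signals on a linear scale, scaled before deposit so that the trimmed mean was the same on all arrays, which hides any change shared by all genes. Median signals ran from 135 to 146, and 17 of the 20 cultures correlated best with another culture of their own embryo. The targeted gene E2f4 had signals of 157, 167, 156, 155 and 197 in null embryos 1 to 5, against 209, 212 and 222 in wild type embryos 1 to 3. All null embryos lay below all wild type embryos, but the difference of -0.35 (log2, SE 0.10) had a limma adjusted p = 0.363, and a probe set outside the deleted part would check nothing. Of the fibroblast markers fixed for the check, 14 of 14 were above the filter on low signal, and their summed signal ran from 109891 to 130996 in null embryos and from 123992 to 128835 in wild type embryos. No list of cell type markers had a member called between genotypes. Of all 7436 genes tested only 1 was called (0.0134%), so this says little about the make-up of the cultures.

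None of the 8 genes differed between genotypes at the threshold, while the binding protein genes differed widely between embryos of the same genotype. Differences are E2F4 null minus wild type on the log2(signal + 16) scale, from limma on embryo means with Benjamini-Hochberg adjustment over the 7436 genes above the filter, and a gene was called at an adjusted p under 0.05. On this scale the change of low signals is understated. Among all genes tested 1 was called, 0.0134%, so a count of 0 of 8 is near the background and says little by itself. At an unadjusted p under 0.05 there were 649 genes and none of the 8. In a fit of every probe set, 0 of 22626 were called (0%) and 0 of the 19. The embryo groups did not overlap for 495 of the 7436 genes (6.66%) and for none of the 8. The median difference was -0.074 over the 8 genes, with 2 above 0 and 6 below, and -0.0035 over all genes tested.

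**Figure D1:**
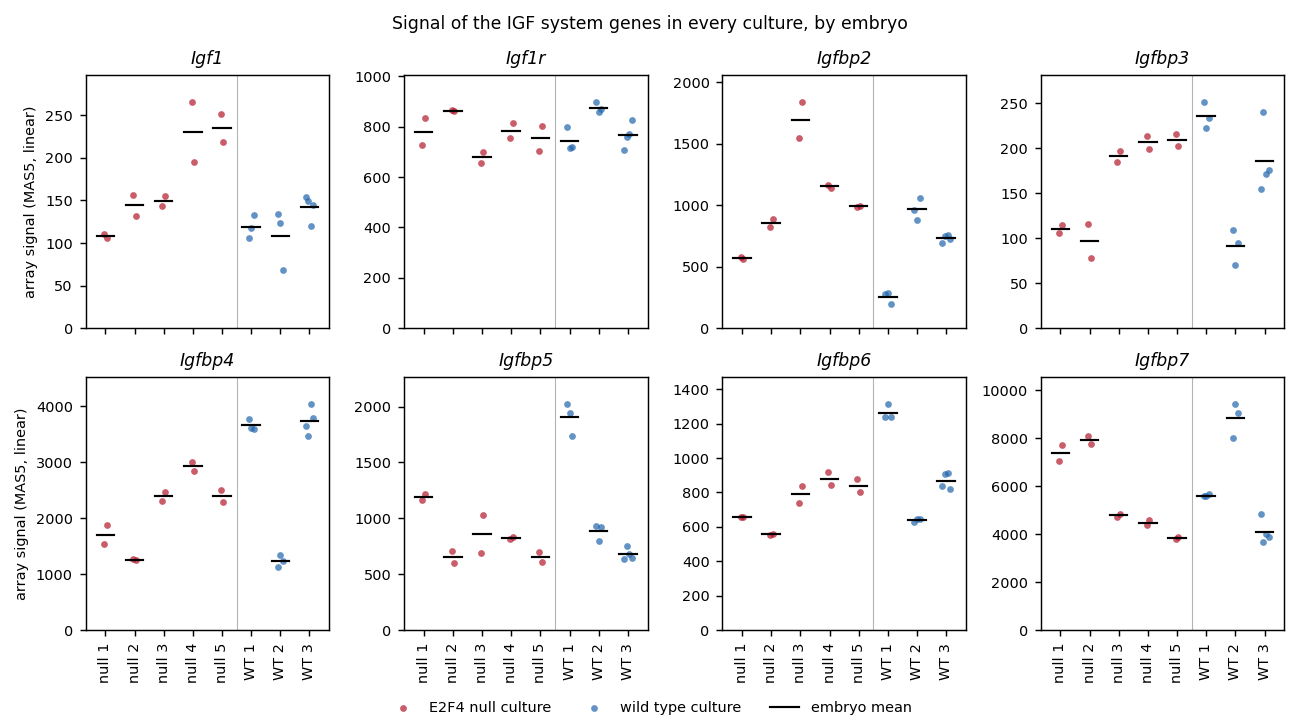
Signal (linear array units, vertical axis from 0) of the 8 genes in each of the 20 cultures, by embryo, with the 5 E2F4 null embryos (red) left of the 3 wild type embryos (blue). Points are cultures and bars are embryo means; the genotypes overlap in every panel, and for Igfbp4 and Igfbp7 the embryos of each genotype lie far apart while their cultures lie close.

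The ligand gene Igf1, on chromosome 10, encodes the growth factor that drives the receptor. Its signal was 108, 144, 149, 231 and 235 in null embryos 1 to 5, against 119, 109 and 142 in wild type embryos 1 to 3. Null embryos 4 and 5 were the highest of the 8, and the other 3 null embryos lay among the wild type ones or close to them. The mean was 174 ± 56.6 in null embryos (SD, n = 5) and 123 ± 17.1 in wild type embryos (n = 3). The difference was 0.41 (log2, 95% interval -0.12 to 0.94, limma adjusted p = 0.670), within the spread between embryos.

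All 3 probe sets of Igf1 were higher on average in the null, by 0.41 to 0.47. The dimmest of them read 92.2, 101, 88.6, 129 and 134 in null embryos 1 to 5, against 70.4, 92.4 and 67.5 in wild type embryos 1 to 3. It was the only 1 of the 19 with an unadjusted p under 0.05, where 1606 of all 22626 probe sets had one, and its limma adjusted p was 0.657. Null embryos 4 and 5 were the highest in each of the 3 probe sets, while the wild type embryos changed places between them. In order of level, the cultures of neighbouring embryos overlapped at every step in both other probe sets, and in the first at every step but that between null embryo 3 and null embryo 4. Summed macrophage markers, with 12 of 19 above the filter, were highest in null embryo 4, at 6389. They were 2137, 3310, 3358 and 3720 in null embryos 1, 2, 3 and 5, and 2624, 4034 and 2440 in wild type embryos 1 to 3. Summed adipocyte markers, with 3 of 5 on the array above the filter, were highest in null embryos 4 and 5. They were 389, 485, 662, 1049 and 849 in null embryos 1 to 5, and 465, 577 and 731 in wild type embryos 1 to 3. Of the 3 above the filter only Lpl was highest in null embryos 4 and 5, at 581 and 418. Fabp4 was highest in wild type embryo 3 (310) and Cebpa in wild type embryo 1 (101). The part of either cell type in the Igf1 signal was not tested. The adipocyte hormone gene Adipoq was at 2.26 to 9.22 in null embryos and 5.24 to 10.96 in wild type embryos, and the macrophage integrin gene Itgam was also near the bottom of the scale, at 6.29 to 21.0 in null embryos and 9.07 to 18.7 in wild type embryos.

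The receptor gene Igf1r, on chromosome 7, was the steadiest of the 8. Its signal was 780, 863, 679, 784 and 754 in null embryos 1 to 5, against 745, 875 and 766 in wild type embryos 1 to 3. The groups covered nearly the same range, with wild type embryo 2 and null embryo 2 highest and null embryo 3 lowest. The mean was 772 ± 66.2 in null embryos (SD, n = 5) and 795 ± 69.6 in wild type embryos (n = 3). The difference was -0.042 (log2, 95% interval -0.24 to 0.16, limma adjusted p = 0.913). Its second probe set differed by 0.061, and the sign of the first turned when wild type embryo 2 or null embryo 3 was left out (0.027 and 0.0019). The interval leaves room for a change of 0.24 in size, so equality of the genotypes was not shown.

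Igfbp2 and Igfbp5 are neighbours on chromosome 1, and both had an extreme value in wild type embryo 1. Igfbp2 encodes a binding protein that is abundant in fetal tissues. Its signal was 570, 853, 1691, 1151 and 989 in null embryos 1 to 5, against 253, 965 and 729 in wild type embryos 1 to 3. Wild type embryo 1 was by far the lowest and null embryo 3 the highest, and the other wild type embryos lay among the null ones. The mean was 1051 ± 417 in null embryos (SD, n = 5) and 649 ± 363 in wild type embryos (n = 3). This was the largest difference of the 8, 0.79 (log2, 95% interval -0.20 to 1.79), and did not pass (limma adjusted p = 0.669). Wild type embryo 1 decided its size: without that embryo the difference was 0.23, and without wild type embryo 2 it was 1.17. In order of level, null embryo 2 overlapped wild type embryo 2, which overlapped null embryo 5, and the cultures of all other neighbours were apart.

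Igfbp5 encodes a binding protein that also attaches to extracellular matrix. Its signal was 1189, 653, 859, 824 and 654 in null embryos 1 to 5, against 1902, 884 and 679 in wild type embryos 1 to 3. Wild type embryo 1 was the highest and null embryo 1 came next, each apart from the embryo below it in every culture, while the remaining 6 embryos lay between 653 and 884. The mean was 836 ± 219 in null embryos (SD, n = 5) and 1155 ± 655 in wild type embryos (n = 3). The difference was -0.36 (log2, SE 0.32, limma adjusted p = 0.780), and leaving out wild type embryo 1 gave 0.068. The second probe set differed by -0.43 and was also highest in wild type embryo 1. In it null embryo 1, at 118, lay below wild type embryo 2 (140) and null embryo 4 (129).

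Igfbp3, Igfbp4 and Igfbp6 had their 3 lowest embryos in common, namely wild type embryo 2 and null embryos 1 and 2. The share of all genes with these 3 embryos at 1 end was not counted. Over all 7436 genes, deviations from the genotype mean in wild type embryo 2 correlated at 0.389 and 0.639 with null embryos 1 and 2. With null embryos 3, 4 and 5 they correlated at -0.345, -0.475 and -0.545, so this order is not shown to be particular to these genes. Igfbp3, on chromosome 11, encodes the main carrier of IGF in blood. Its signal was 110, 96.5, 191, 207 and 209 in null embryos 1 to 5, against 236, 91.3 and 185 in wild type embryos 1 to 3. Wild type embryo 2 and null embryos 1 and 2 had no culture above 115.3, and no culture of the other 5 embryos was below 154. The mean was 163 ± 54.9 in null embryos (SD, n = 5) and 171 ± 73.4 in wild type embryos (n = 3). The difference was -0.032 (log2, SE 0.33, limma adjusted p = 0.987). Its sign turned when 1 of 4 embryos was left out, to 0.23 for wild type embryo 1, 0.063 for wild type embryo 3, 0.078 for null embryo 1 and 0.12 for null embryo 2.

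Igfbp4, also on chromosome 11, encodes a binding protein that mostly inhibits IGF action and is cut by pappalysin 1. Its signal was 1706, 1261, 2393, 2925 and 2397 in null embryos 1 to 5, against 3660, 1234 and 3737 in wild type embryos 1 to 3. Wild type embryos 1 and 3 were the highest of all 8 and wild type embryo 2 the lowest, so the wild type group spanned the whole null range. The highest over the lowest embryo came to 2.32 times among null embryos and 3.03 times among wild type embryos. The mean was 2136 ± 653 in null embryos (SD, n = 5) and 2877 ± 1423 in wild type embryos (n = 3). The difference was -0.32 (log2, SE 0.39, limma adjusted p = 0.850). Leaving out wild type embryo 2 gave -0.85 and leaving out wild type embryo 3 gave -0.054, and neither passed. All 6 probe sets differed by -0.39 to -0.21, and in each of them wild type embryo 2 and null embryos 1 and 2 were the lowest 3.

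Igfbp6, on chromosome 15, encodes a binding protein that prefers IGF2 to IGF1. Its signal was 658, 556, 789, 879 and 840 in null embryos 1 to 5, against 1264, 641 and 868 in wild type embryos 1 to 3. Wild type embryo 1 was the highest, and its lowest culture, at 1237, was above every null culture. The mean was 744 ± 134 in null embryos (SD, n = 5) and 924 ± 315 in wild type embryos (n = 3). The difference was -0.27 (log2, SE 0.22, limma adjusted p = 0.751), and leaving out wild type embryo 1 gave -0.023 and wild type embryo 2 -0.50.

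Igfbp7, on chromosome 5, encodes a secreted protein with low affinity for IGF that is found in matrix and around vessels. Its signal was 7385, 7940, 4784, 4482 and 3840 in null embryos 1 to 5, against 5612, 8834 and 4109 in wild type embryos 1 to 3. The 3 embryos that were lowest for Igfbp3, Igfbp4 and Igfbp6 were the highest here, and their lowest culture, at 7048, was above the highest culture of the other 5, at 5658. The mean was 5686 ± 1847 in null embryos (SD, n = 5) and 6185 ± 2414 in wild type embryos (n = 3). The difference was -0.11 (log2, SE 0.30, limma adjusted p = 0.938), and its sign turned when wild type embryo 2 (0.19) or null embryo 5 (0.020) was left out. The second probe set had the same 3 embryos on top and differed by -0.025. The third averaged only 7.14 ± 2.78 in null embryos (SD, n = 5) and 9.14 ± 3.81 in wild type embryos (n = 3), near the bottom of the scale, and differed by -0.10.

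**Figure D2:**
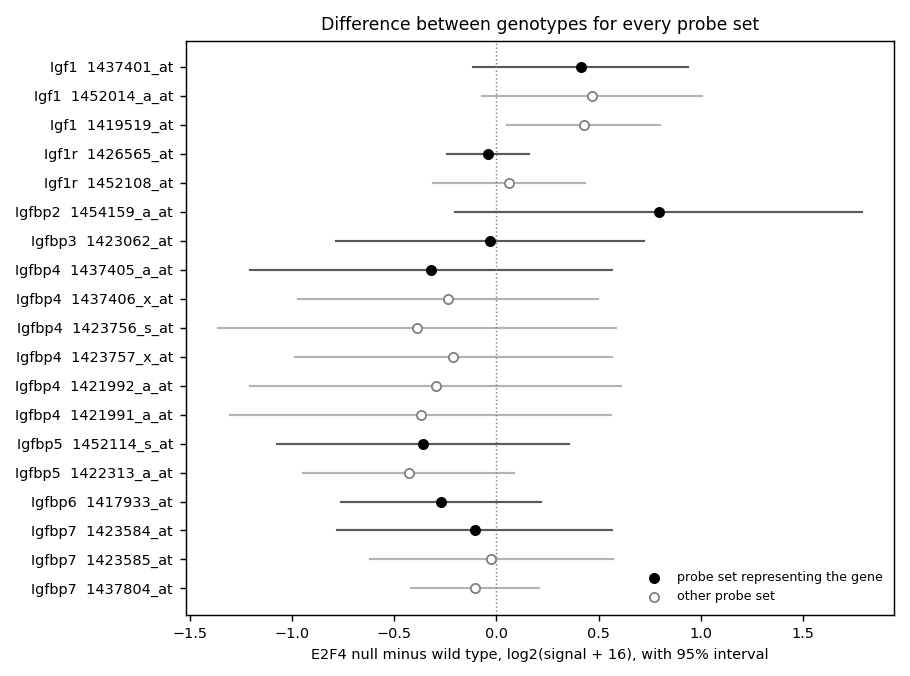
Difference E2F4 null minus wild type (log2(signal + 16), horizontal axis) for the 19 probe sets, with 95% intervals from limma on 5 and 3 embryo means. Filled points are the probe sets that represent the genes; 18 of the 19 intervals include 0, and the exception is 1 probe set of Igf1, whose adjusted p was 0.657.

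The promoters of the 4 genes with the same 3 embryos at 1 end are shown here to see whether they share an E2F word. They are from RefSeq, GRCm38.p6, as windows of 300 bases around the annotated start. Windows were given for all 8 genes, 9 in all. Capitals mark matches, on either strand, to 2 words: TATAAA, known as the TATA box, and CCCGCC, a GC-rich word. The windows are chr11:7213874-7214173 on the minus strand for Igfbp3, chr11:99040994-99041293 on the plus strand for Igfbp4, chr15:102143936-102144235 on the plus strand for Igfbp6 and chr5:77407996-77408295 on the minus strand for Igfbp7.
Igfbp3: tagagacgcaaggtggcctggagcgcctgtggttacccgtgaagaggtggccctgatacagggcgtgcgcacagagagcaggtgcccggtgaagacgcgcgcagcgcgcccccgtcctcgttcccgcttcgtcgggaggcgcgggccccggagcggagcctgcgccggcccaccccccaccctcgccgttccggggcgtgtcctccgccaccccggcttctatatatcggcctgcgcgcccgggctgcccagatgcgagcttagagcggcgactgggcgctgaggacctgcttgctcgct
Igfbp4: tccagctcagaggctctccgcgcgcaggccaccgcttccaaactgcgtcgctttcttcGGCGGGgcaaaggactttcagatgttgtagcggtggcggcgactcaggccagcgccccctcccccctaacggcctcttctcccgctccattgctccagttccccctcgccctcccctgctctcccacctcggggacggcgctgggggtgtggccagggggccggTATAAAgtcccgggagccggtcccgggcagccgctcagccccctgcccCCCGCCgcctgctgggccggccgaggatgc
Igfbp6: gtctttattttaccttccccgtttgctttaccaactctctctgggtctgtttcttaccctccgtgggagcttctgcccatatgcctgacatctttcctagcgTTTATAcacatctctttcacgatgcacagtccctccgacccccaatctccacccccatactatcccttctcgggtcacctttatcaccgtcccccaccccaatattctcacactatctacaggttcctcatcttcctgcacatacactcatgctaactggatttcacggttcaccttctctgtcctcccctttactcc
Igfbp7: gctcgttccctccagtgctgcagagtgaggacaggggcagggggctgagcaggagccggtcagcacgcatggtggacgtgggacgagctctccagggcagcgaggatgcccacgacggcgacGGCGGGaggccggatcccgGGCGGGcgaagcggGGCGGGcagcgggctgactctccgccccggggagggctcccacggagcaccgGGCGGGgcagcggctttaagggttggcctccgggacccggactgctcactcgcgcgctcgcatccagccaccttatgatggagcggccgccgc

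The 4 windows shared none of the words searched. The E2F words were TTTCCCGC, TTTCGCGC, TTTGCCGC and TTTGGCGC on either strand. None of the 9 windows held any of them, against 2.27% of all 32851 RefSeq windows, which says only that these letters are not in these windows. TTTGAA, the word of the cell cycle element called CHR, was in the window of Igf1 and in 1 of the 2 windows of Igfbp2, and in 17.9% of all windows. Igfbp4 had TATAAA at 28 bases before its start, and Igfbp6 had it on the opposite strand at 148 bases before, against 13.6% of all windows with a match. CCCGCC was in the windows of Igfbp4 (2 matches) and Igfbp7 (4 matches), not in those of Igfbp3 and Igfbp6, and in 35.3% of all windows. The matches did not overlap in the 4 windows shown, and a match is not a binding site.

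**Figure D3:**
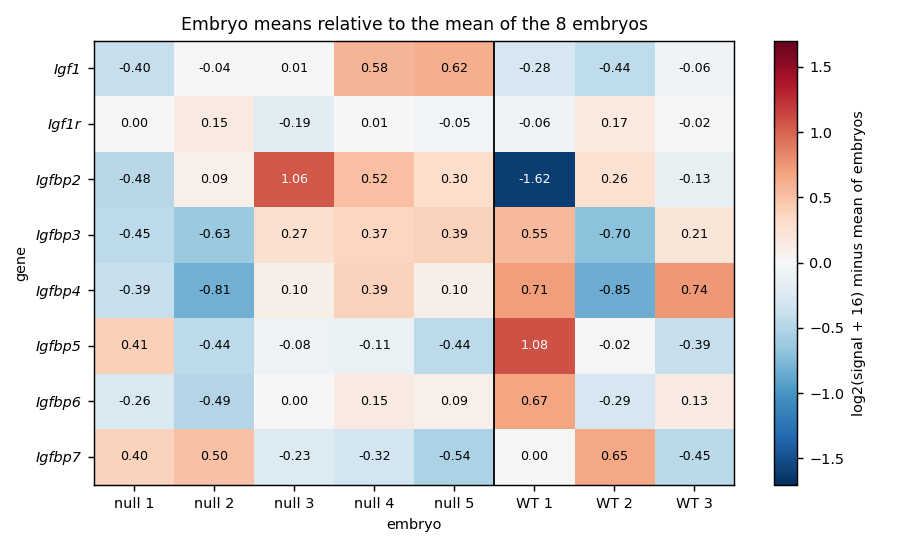
Embryo means of the 8 genes as log2(signal + 16) minus the mean of the 8 embryos (colour and printed value), with null embryos 1 to 5 left of wild type embryos 1 to 3. Null embryos 1 and 2 and wild type embryo 2 are below the mean for Igfbp3, Igfbp4 and Igfbp6 and above it for Igfbp7, on both sides of the genotype border.

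Embryos of 1 genotype were then set against each other by an F test in limma over their cultures, which compares embryos with the spread between their own cultures. Between null embryos 7 of the 8 genes were called, all but Igf1r (adjusted p = 0.140), where 22.9% of all 7436 genes were called. Between wild type embryos 7 of the 8 were called, all but Igf1 (adjusted p = 0.185), where 50.1% of all genes were called. The smallest adjusted p between null embryos was that of Igfbp7, 6.908e-07, and between wild type embryos that of Igfbp4, 1.652e-10. How the cells of each embryo were grown is not given in the labels, so embryo and culture handling cannot be told apart here. Over every probe set, 12 of the 19 were called between null embryos, where 8.96% of all were, and 14 of the 19 between wild type embryos, where 27.5% were. Between null embryos the other probe sets of Igf1 (F test adjusted p = 0.113 and 0.421) and of Igfbp5 (0.667) were not called. Nor were the second of Igf1r (F test adjusted p = 0.4155), the dimmest of Igfbp4 (0.095) and the third of Igfbp7 (0.674). The second probe set of Igf1r was not called between wild type embryos (F test adjusted p = 0.126). Neither were the others of Igf1 (F test adjusted p = 0.221 and 0.279) and the third of Igfbp7 (0.35). Without wild type embryo 2, the count between the remaining wild type embryos was 4 of 8, and Igf1r, Igfbp3 and Igfbp4 lost their call, while calls over all 7436 genes went down to 1121 with that embryo left out, against 3722 with it. Without null embryo 1, the count between null embryos was 6, and Igfbp5 lost its call, with 1410 of all genes called, against 1704 with that embryo.

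The size of this spread was large against other genes for all members but the receptor. The SD between embryos of a genotype (log2) was 0.74 for Igfbp2, 0.65 for Igfbp4, 0.55 for Igfbp3, 0.52 for Igfbp5, 0.49 for Igfbp7, 0.37 for Igf1, 0.35 for Igfbp6 and 0.12 for Igf1r. The median over the 8 was 0.51, against 0.14 over all genes tested, and 7 of the 8 lay above that. The SD between cultures of an embryo had a median of 0.12 over the 8, against 0.12 over all genes. In the ranking of all genes by the SD between embryos, the 6 binding protein genes stood between the 92nd percentile (Igfbp6, 92.0) and the 99th (Igfbp2, 99.1), Igf1 at 92.9 and Igf1r at 39.7.

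**Figure D4:**
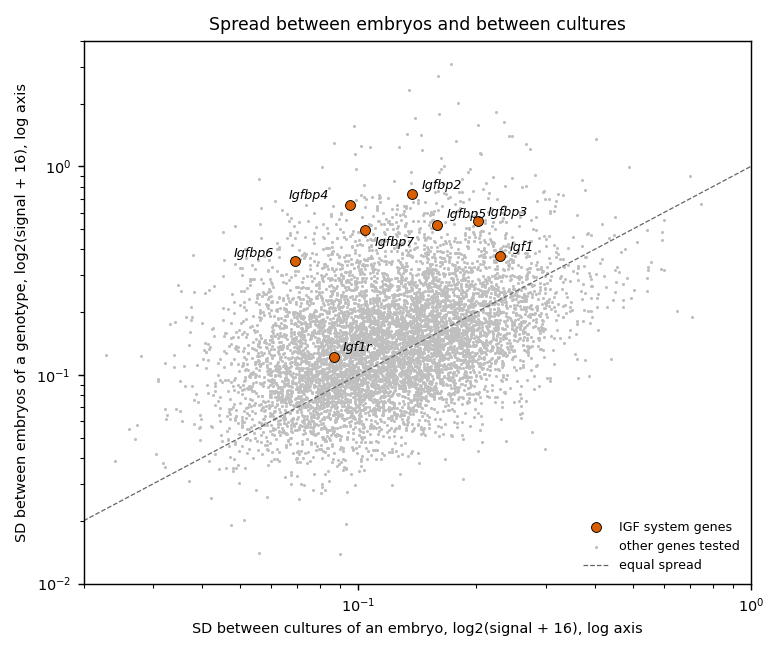
SD between embryos of a genotype against SD between cultures of an embryo, both of log2(signal + 16) on log axes, for the 8 IGF system genes (orange) and all other genes tested (grey). The dashed line marks equal spread; the binding protein genes lie far above it, at 0.35 to 0.74 between embryos and 0.069 to 0.20 between cultures, and Igf1r lies near the bulk of genes.

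Summed markers of several cell types and of dividing cells moved with this order of the embryos, though not gene by gene in every list. Summed smooth muscle markers, with 5 of 6 above the filter, were 40848, 45362, 31422, 32676 and 28706 in null embryos 1 to 5, and 32021, 48138 and 28994 in wild type embryos 1 to 3. Wild type embryo 2 and null embryos 1 and 2 were the highest 3, as for Igfbp7. Summed skeletal muscle markers, with 2 of 10 above the filter, were 1702, 3609, 489, 472 and 466 in null embryos, and 863, 4288 and 570 in wild type embryos. The same 3 embryos were highest, chiefly through the actin gene Acta1, while the myogenic factors Myod1 and Myog did not pass the filter and were at 3.97 to 33.2 in null embryos and 7.86 to 29.6 in wild type embryos. Markers of dividing cells, with 15 of 15 above the filter, summed to 28283, 28939, 32968, 34812 and 34778 in null embryos, and to 30935, 23457 and 36481 in wild type embryos, so the same 3 embryos were lowest. Summed endothelial markers, with 2 of 10 above the filter, were also highest in them, at 772, 802, 580, 601 and 510 in null embryos and 677, 860 and 487 in wild type embryos. So were epithelial markers, with 2 of 7 above the filter, at 787, 695, 458, 526 and 534 in null embryos and 380, 598 and 351 in wild type embryos. Gene by gene, the 3 embryos were highest for 5 of 5 smooth muscle and 2 of 2 skeletal muscle genes above the filter. The gene Des was in both of these lists, so Acta1 was the only skeletal muscle gene counted that the smooth muscle list lacked. The same 3 embryos were lowest for 11 of 15 genes of dividing cells, and highest for 1 of 2 epithelial genes and 0 of 2 endothelial genes. The share of all genes with these embryos at 1 end was not counted, so these counts have no background. Fibroblast markers went both ways: the 3 embryos were the lowest for 3 of 14, Pdgfra, Dcn and Lum, the highest for 4, Col1a1, Col1a2, Fn1 and Vim, and neither for the other 7. The part of cell composition or growth state in the levels of the binding protein genes was not tested.

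The genes whose embryo means were most like those of each member are given as a description over 8 embryos, out of 7428 others. They share arrays and scaling with the member and were picked as the highest of many, and rho over the 16 pairs ran from 0.738 to 1.0. For Igfbp4 they were Dcn, the matrix proteoglycan decorin (Pearson r = 0.996, Spearman rho = 0.976), and Ccdc88a, an actin-binding protein (r = 0.984). Dcn was at 141, 91.3, 223, 318 and 243 in null embryos and at 393, 99.3 and 408 in wild type embryos, the same lowest 3 and highest 2 as for Igfbp4. For Igfbp7 they were Wfs1, a protein of the endoplasmic reticulum (r = 0.993), and Khdrbs3, an RNA-binding protein (r = 0.992). For Igfbp3 they were the cohesin subunit gene Stag2 (r = 0.988) and the zinc finger gene Zscan22 (r = 0.981). Igfbp6 was closest to Olr1, a receptor for oxidised lipoprotein (r = 0.960), and Lgalsl, a galectin-like gene (r = 0.956). Igfbp2 was closest to Nfyc, a subunit of the factor NF-Y (r = 0.966), and Paip2b (r = 0.962). Igf1 was closest to Crabp1, which binds retinoic acid (r = 0.972), and Ap4s1, an adaptor complex subunit (r = 0.967), and Igf1r to the calponin gene Cnn2 (r = 0.966) and Nans, an enzyme of sialic acid synthesis (r = 0.954). Without the 2 embryos farthest from the median of the member these r stayed between 0.832 and 0.995. The exception was Igfbp5, whose likeness to Arhgef2 (r = 0.946) and the adhesion gene Ncam1 (r = 0.944) rested on such embryos, with r of 0.569 and 0.467 without them.

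The other genes of the pathway were counted over a list of 61, of which 51 were on the array and 44 passed the filter. None was called between genotypes, and 4 of the 44 had an unadjusted p under 0.05, where 649 of all 7436 genes had one. Of the differences 19 lay above 0 and 25 below, and the median difference was -0.040 against -0.0035 over all genes. Between null embryos 19 of the 44 were called (43.2%, against 22.9% of all genes), and between wild type embryos 27 (61.4%, against 50.1%). The groups did not overlap for 1 of them (2.27%, against 6.66% of all genes), so this count lies below the background. It was Stc2, which encodes stanniocalcin 2, an inhibitor of the pappalysins. Its signal was 116, 116, 159, 154 and 149 in null embryos, against 98.8, 109 and 102 in wild type embryos, a difference of 0.38 (log2, SE 0.12, limma adjusted p = 0.418). Eif4ebp1, a translation repressor downstream of mTOR, had the second smallest p above 0, with a difference of 0.18 (adjusted p = 0.593). Below 0, the smallest p were those of the receptor adaptor Grb14, at -0.45 (adjusted p = 0.459), and the kinase subunit Pik3ca, at -0.20 (adjusted p = 0.520).

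Igf2, the second ligand, was at 7723, 4753, 7711, 8067 and 8025 in null embryos, against 7040, 4675 and 6905 in wild type embryos. Null embryo 2 and wild type embryo 2 were low and all others lay between 6905 and 8067. The difference between genotypes was 0.22 (log2, SE 0.20, limma adjusted p = 0.784). Igf2r, the receptor that clears IGF2, averaged 1604 ± 137 in null embryos (SD, n = 5) and 1514 ± 142 in wild type embryos (n = 3), a difference of 0.083 (adjusted p = 0.822). Insr, the insulin receptor gene, did not pass the filter, at 14.5 to 28.3 in null embryos and 12.8 to 26.2 in wild type embryos, and its difference of 0.28 in the fit of every probe set had an adjusted p = 0.7995. H19 was not analysed here.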

How the data were processed

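The authors deposited 1 signal intensity for each probe set on each array, in linear units, from MAS5 (per the submitters' processing notes). The sources used here do not give the MAS5 version, any detection calls or the target of the scaling. Of 22690 probe sets 64 were controls, 20393 had 1 gene symbol and 20364 of those matched RefSeq (GRCm38.p6). The array table names no build, so genes are given by chromosome only. Values were converted to log2(signal + 16), with a pseudocount close to the 20th percentile of the table (15.7), then averaged per embryo. Each gene took its probe set with the highest mean, and those under the 40th percentile were left out, so that 7436 of 12393 genes were tested. The genotype comparison used limma 3.58.1 under R 4.3.3 (two-sided, eBayes with trend, adjusted p under 0.05), and embryos of 1 genotype were compared by its F test over cultures; both were tested on simulated data. Members, lists and tests were chosen with earlier results of these data known. Besides the 8 members, the genes named were E2f4, pathway genes that passed or had the 2 smallest p each way, Igf2, Igf2r, Insr and H19, and the 2 genes most like each member. Marker genes and the sex-linked genes named singly were chosen after their values were seen. The number of arrays and embryos limits the precision.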

Additional observations from a re-analysis of the deposited data

How the results depend on the processing

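The count of members called between genotypes was 0 under all 23 alternatives, and that of member probe sets 0 under all 13. These varied the filter (none, 60th percentile), the pseudocount (4 and 64), normalization, every probe set, variance models, cultures as samples, blocks, and each embryo left out. Of 182 recomputed differences of single genes 171 kept their sign, and the smallest adjusted p was 0.112, for Igfbp2 with cultures taken as independent. The 11 that changed sign belonged to Igfbp3, Igfbp5, Igf1r and Igfbp7. With each embryo left out in turn, Igfbp3 ran from -0.39 to 0.23, Igfbp5 from -0.66 to 0.068, Igf1r from -0.087 to 0.027 and Igfbp7 from -0.37 to 0.19. Igfbp3 was 0.017 without 2 arrays with outlying control probe sets, a setting chosen after seeing the data. With the embryo number as a replicate block, which leaves null embryos 4 and 5 without a partner, Igfbp7 was 0.16 and 0 members were called. Embryos that share a number correlated at 0.086, 0.639 and 0.423 in their deviations. Null embryos 2 and 3 correlated best with the wild type embryo of their own number, and null embryo 1 with wild type embryo 2 (0.389). Wild type embryo 3 correlated best with null embryo 5 (0.637). The labels do not say whether a shared number stands for a litter or a batch, and this was not tested.

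Between wild type embryos 4 to 7 members were called with each embryo left out, 4 being without wild type embryo 2, and among all 7436 genes 1121 were called without that embryo, 3391 without wild type embryo 1 and 2779 without wild type embryo 3. Between null embryos 5 to 7 were called under all alternatives, 5 with the 60th percentile filter, which tests fewer members. Among all genes, 1 was called between genotypes, against 80 when embryos were a random block over cultures and 543 with cultures taken as independent. That last setting counts repeats of an embryo as replicates, so the 543 are not calls over embryos. The count was 0 with the embryo number as a block, and 38 with the culture number as a block and embryos as a random block together. It was 0 with cultures 1 and 2 only and 11 without wild type embryo 2. The cause of the other changes was not tested. With 3 wild type embryos, intervals of the binding protein genes are wide.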

Other observations

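Sex-linked genes, chosen after their values were seen, split the embryos in a way that only partly overlapped the order for Igfbp4. Xist, the RNA of the inactive X chromosome, was at 2218, 47.1, 30.5, 2299 and 2266 in null embryos 1 to 5, and at 3070, 37.9 and 2983 in wild type embryos 1 to 3. The Y-linked gene Eif2s3y was at 0.54, 557, 679, 5.01 and 0.44 in null embryos, and at 2.96, 350 and 2.16 in wild type embryos. Null embryos 2 and 3 and wild type embryo 2 were thus low for Xist and high for Eif2s3y, while the embryos lowest for Igfbp4 were null embryos 1 and 2 and wild type embryo 2. Null embryo 2 and wild type embryo 2 were in both groups, and the part of sex in the levels of the members was not tested.

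In wild type embryo 1, 4 binding protein genes stood at 1 end of the 8 embryos: Igfbp2 was the lowest, and Igfbp3, Igfbp5 and Igfbp6 were the highest. How many of all genes stood at an end in this embryo was not counted, so the count of 4 has no background. The distance of the control probe sets from the median array was 0.155, 0.289 and 0.243 (log2) for cultures 1 to 3 of that embryo. The 2 farthest arrays were null embryo 4 culture 2 (0.493) and wild type embryo 2 culture 1 (0.357). Null embryo 5 culture 2 was at 0.249. The part of this distance in the values of the 4 genes was not tested.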
